A study of Mus musculus with 9 samples.

Results

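The genes of the proteasome, of its activators and of the chaperones that assemble it were followed in regulatory T cells (Tregs) of the arthritic joint and of lymph nodes. Members were the genes whose symbol is Psma, Psmb, Psmc, Psmd, Psme, Psmf or Psmg followed by a digit, without pseudogenes named -ps and with a mean normalized count of 10 or more over the 9 libraries. The name matched 49 genes and the threshold kept 47, of 11357 genes tested and 23420 in the table. Psma8, the testis form of an alpha subunit, had no read in any library, below the 3 reads that a count of 0 allows, and Psmb11, the thymus form of a catalytic subunit, had a normalized count of 1.10 in synovial library 1 and 0 in the other libraries. The 47 members were set out as the 5 immunoproteasome genes (Psmb8, Psmb9, Psmb10, Psme1 and Psme2) beside 42 others. One of the 42, Psmc3ip, carries the name of an ATPase to which its protein binds, works in meiotic recombination, and is no part of the proteasome.

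Tregs of wild-type mice were purified by the YFP of a Foxp3 reporter, in 3 groups of 3 libraries, each from a mouse with a number of its own in its group by the titles. The groups were synovial Tregs of mice with collagen-induced arthritis, Tregs of the draining lymph node of arthritic mice (arthritic node below), and Tregs of the draining lymph node of untreated mice (control node). Collagen-induced arthritis is a joint inflammation that follows immunization with collagen. Synovial and arthritic node libraries carry the same mouse numbers, while the control mice are other animals. Paws and nodes were enzymatically dissociated before the sort. Age, sex and strain are not given in the sources used here, and no group holds joint tissue of healthy mice.

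The proteasome is the barrel-shaped protease that degrades ubiquitin-tagged proteins. Rings of alpha subunits (Psma) frame rings of beta subunits (Psmb), of which Psmb5, Psmb6 and Psmb7 carry the active sites; together they form the 20S core. The 19S cap, built of ATPases (Psmc) and other subunits (Psmd), recognizes, unfolds and feeds in the substrate. In lymphocytes, and in other cells under interferon, the catalytic subunits Psmb8, Psmb9 and Psmb10 take the places of Psmb5, Psmb6 and Psmb7 in newly built cores, the immunoproteasome, whose peptides suit major histocompatibility complex (MHC) class I molecules. Psme1 and Psme2 form PA28, an interferon-induced ring that opens the core without ubiquitin. Psmg1 to Psmg4, with Pomp, assemble the 20S core, and Psmd5, Psmd9 and Psmd10 assemble the base of the 19S cap.

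Library totals were 11300406 to 12855435 reads, with 11770 to 13118 genes above 0. The 9 Treg and T cell markers were all detected in each group, at a summed 1.15% to 1.24% of a synovial library, 0.689% to 0.781% of an arthritic node library and 0.756% to 0.797% of a control node library. Some of the 10 dendritic cell markers are also expressed by activated T cells. All 10 together summed to 0.0954% to 0.113%, 0.0400% to 0.0496% and 0.0275% to 0.0443% in the same order. Of the 6 tested, Zbtb46, Xcr1 and Cd74 were called higher in synovium than in arthritic node, and none lower. Against control node, H2-Ab1 and H2-Eb1 were called higher as well. Itgax and Clec9a were at 0 in synovium. The 7 fibroblast markers reached 0.0126% in synovial library 3 and stayed at or below 0.00142% in every other library. Of the 5 tested, Dcn was called higher in synovium than in control node, and 0 were called against arthritic node. The 6 CD8 T and NK cell markers summed to 0.00116% to 0.00185%, 0.00137% to 0.00336% and 0.000917% to 0.00162% in synovium, arthritic node and control node. Of the 3 tested, Klrk1 was called higher in synovium than in control node, and 0 against arthritic node. The 4 B cell markers summed to 0.00147% to 0.00255% in synovium, 0.00360% to 0.00576% in arthritic node and 0.00389% to 0.00458% in control node. Cd79b was called lower in synovium than in arthritic node. The 8 macrophage and monocyte markers summed to 0.000749% to 0.00501% with overlapping groups. Among them, Cd14 was called higher in synovium than in either node and Lyz2 lower than in control node. The 5 neutrophil markers summed to 0.000282% to 0.000782% in synovium, at most 0.000220% in arthritic node and 8.85e-06% in control node. Ltf, the only 1 tested, was called higher in synovium than in either node. The 20 genes of a dissociation and heat-shock list held 1.46% to 1.73% of the synovial libraries against 0.512% to 0.740% of arthritic node and 0.514% to 0.569% of control node libraries, and 15 of them were higher in synovium than in arthritic node. The 5 mast cell and basophil markers summed to 0.00487% to 0.00733% in synovium, 0.000397% to 0.00145% in arthritic node and 0.000681% to 0.00124% in control node. Of the 3 tested, Kit and Hdc were called higher in synovium than in either node. Cpa3 was called lower in synovium than in control node (-3.11, limma adjusted p = 0.0235). Against arthritic node Cpa3 did not pass the test (-2.69, adjusted p = 0.0502). Mcpt4 and Fcer1a were at 0 in synovium. The 4 endothelial markers summed to 0.0108% to 0.0122% in synovium, 0.0207% to 0.0268% in arthritic node and 0.0247% to 0.0303% in control node. Of the 4, only Pecam1 reached the level for testing, and it was called lower in synovium than in either node. Kdr was at 0 in every group, Tek in both nodes and Cdh5 in control node. The part of these sums in the differences below was not tested.

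The promoters of the 3 immunoproteasome catalytic genes and of 2 constitutive counterparts are printed, because the members of these pairs did not move together between tissues. That of Psmb7, the counterpart of Psmb10, is not printed, and neither of these genes is among the members with a motif match below. A link between the letters and the differences was not tested. Each window runs from 250 bases before to 50 after the RefSeq start (build GRCm38.p6), is printed 5′ to 3′ on the gene's strand, and has motif matches in capitals. The motifs, searched on both strands, were TGACNNNGC (the core of the antioxidant response element bound by Nrf1 and Nrf2), TTCNNNGAA (the interferon-gamma activated site) and the core of the interferon-stimulated response element, a pair of GAAA runs 2 bases apart. The windows were Psmb8, chr17:34197945-34198244, plus strand; Psmb9, chr17:34187281-34187580, minus strand; Psmb10, chr8:105938343-105938642, minus strand; Psmb5, chr14:54617946-54618245, minus strand; and Psmb6, chr11:70525107-70525406, plus strand.
Psmb8: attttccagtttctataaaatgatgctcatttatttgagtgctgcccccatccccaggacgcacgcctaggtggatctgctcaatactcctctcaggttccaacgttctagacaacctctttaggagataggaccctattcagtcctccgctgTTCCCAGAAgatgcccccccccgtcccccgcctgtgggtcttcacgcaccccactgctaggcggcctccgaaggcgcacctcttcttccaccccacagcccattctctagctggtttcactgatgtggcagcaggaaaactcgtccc
Psmb9: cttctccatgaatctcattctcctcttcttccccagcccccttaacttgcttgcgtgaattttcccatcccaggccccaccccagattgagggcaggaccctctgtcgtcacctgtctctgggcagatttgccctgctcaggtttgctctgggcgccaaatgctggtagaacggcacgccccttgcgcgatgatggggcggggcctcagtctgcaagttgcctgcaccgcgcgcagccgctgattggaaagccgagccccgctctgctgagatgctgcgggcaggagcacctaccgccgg
Psmb10: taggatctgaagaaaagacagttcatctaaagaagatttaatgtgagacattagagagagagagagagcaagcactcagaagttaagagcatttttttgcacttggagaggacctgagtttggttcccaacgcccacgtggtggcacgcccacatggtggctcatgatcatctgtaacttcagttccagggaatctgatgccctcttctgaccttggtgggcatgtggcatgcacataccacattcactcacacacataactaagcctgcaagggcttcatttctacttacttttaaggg
Psmb5: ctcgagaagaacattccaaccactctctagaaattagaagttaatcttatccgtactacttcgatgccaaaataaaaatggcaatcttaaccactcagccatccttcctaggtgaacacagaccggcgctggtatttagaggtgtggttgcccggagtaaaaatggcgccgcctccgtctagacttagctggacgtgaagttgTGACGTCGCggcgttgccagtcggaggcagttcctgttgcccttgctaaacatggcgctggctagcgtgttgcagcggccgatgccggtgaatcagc
Psmb6: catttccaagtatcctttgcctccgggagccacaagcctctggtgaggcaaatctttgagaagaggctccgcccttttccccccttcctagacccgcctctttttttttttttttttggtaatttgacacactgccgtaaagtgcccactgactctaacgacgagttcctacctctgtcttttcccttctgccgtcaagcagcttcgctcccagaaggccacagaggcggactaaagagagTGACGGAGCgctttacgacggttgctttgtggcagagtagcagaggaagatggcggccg
Psmb5 and Psmb6 each held a TGACNNNGC match, as did Psmc6, Psmd9, Psmd12 and Psme4, so 6 of the 40 members with a window, and none of the 5 immunoproteasome genes, against 12.4% of all 32851 RefSeq windows. The pattern TTCNNNGAA reads the same on both strands, so a match on one is a match on the other. That of Psmb8 had counterparts in Psmd2 and Psmg1, 3 of 40 members against 8.30% of windows. The response element core stood in Psmb3, Psmd4, Psmd9, Psme1 and Psmg4, 5 of 40 against 3.44% of windows. The windows of Psmb9 and Psmb10 held none of the 3 patterns. Those of Psmb8 and Psmb9 lie within the spans of their genes in the GENCODE vM21 annotation. The printed windows thus do not reach the letters before the outermost annotated starts of these 2 genes. A match is a description of these letters, and the data hold no binding measurement.

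The question put to the synovial and arthritic node libraries is how Tregs of the inflamed joint differ from those of the node that drains it. In synovium, all 5 immunoproteasome genes and 5 assembly chaperone genes fell, Psmb7 rose, and the other 36 members did not pass the test. The largest falls were in Psmg1 (2.15-fold lower), Psmb10 (2.12-fold), Psmg4 (2.08-fold) and Psmg2 (2.06-fold). The test was limma on log2(normalized count + 1) over all 9 libraries with Benjamini-Hochberg (BH) adjustment over the 11357 genes, and a gene was called at an adjusted p under 0.05. So 1 of 47 members was higher and 10 of 47 were lower, against 17.9% of all tested genes higher and 15.9% lower. The median log2 difference, synovium minus arthritic node, was -0.67 over the 5 immunoproteasome genes and 0.02 over the 42 others, beside a median of 0.00 over all genes (quartiles -0.56 and 0.57). After quantile normalization, which moved the median of all genes by -0.12, the 42 others stood at -0.22 (0.11 below all genes) and the immunoproteasome genes at -1.05 (0.93 below all genes). In that fit 0 members were higher and 19 lower, against 1711 higher and 2344 lower of all 11357 genes. In bulk RNA, fewer cells of a type and less RNA per cell cannot be told apart.

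**Figure D1:**
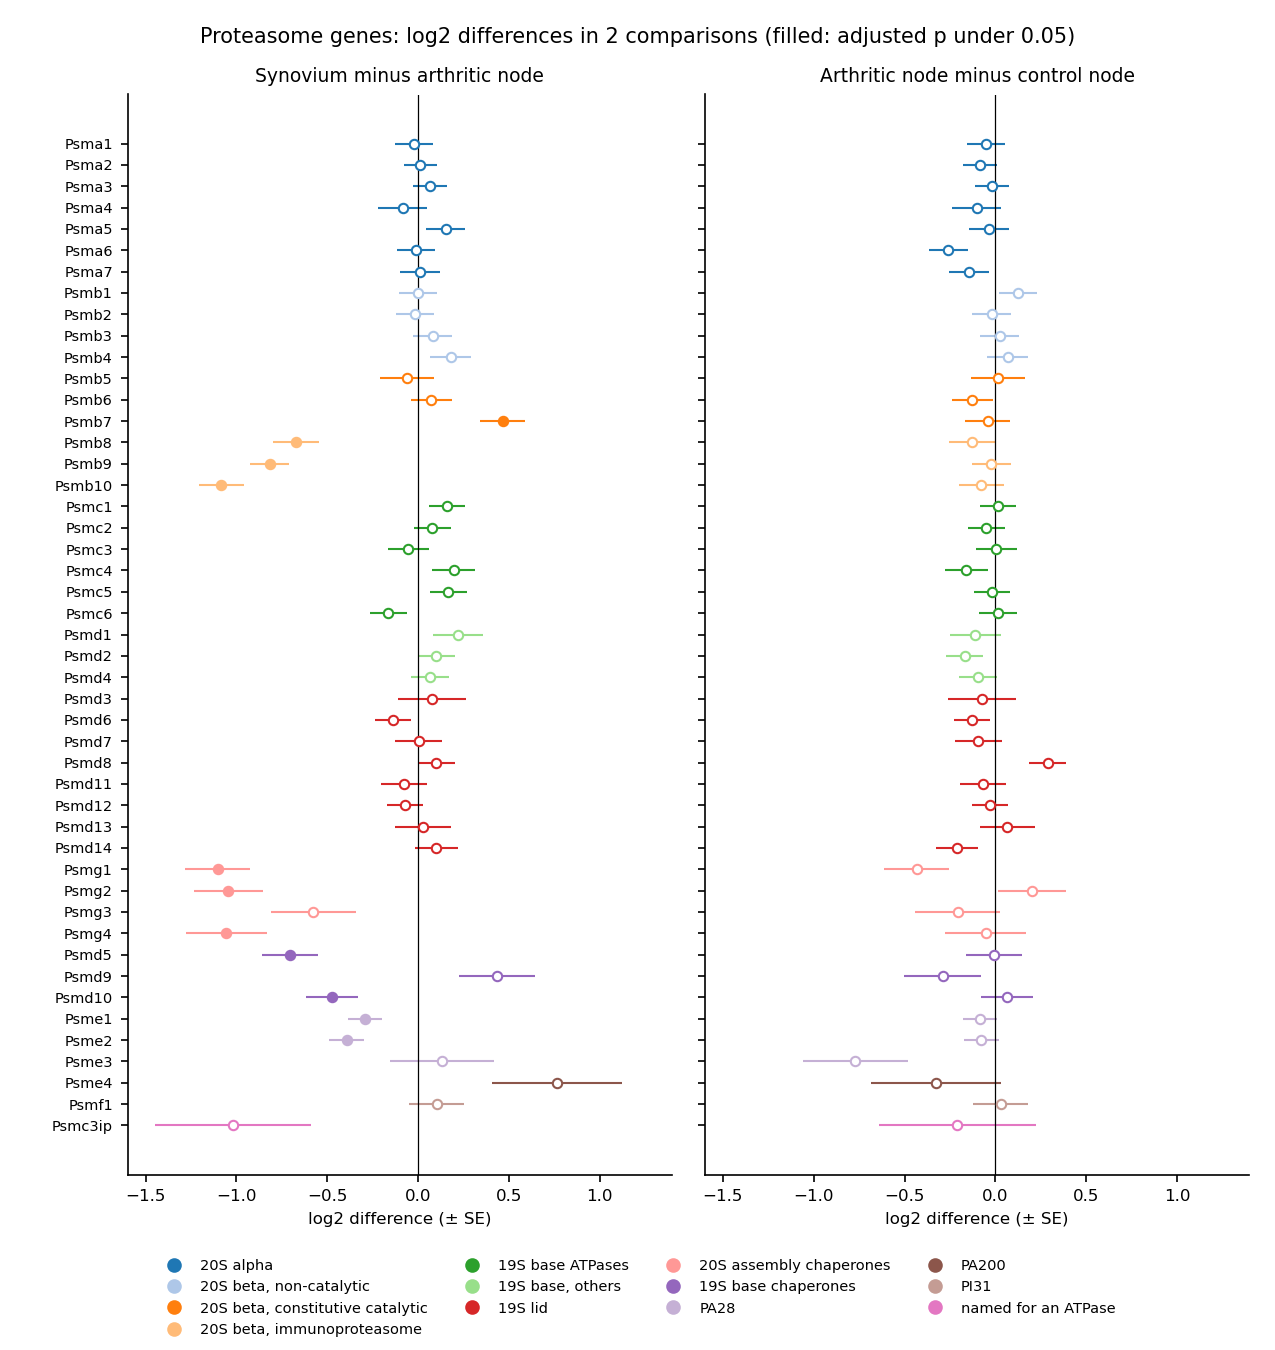
Log2 difference (± SE, limma) of each of the 47 members, by role, for synovium minus arthritic node (left) and arthritic node minus control node (right); filled points passed an adjusted p of 0.05. On the left the immunoproteasome genes and most assembly chaperones lie below 0 while the 20S and 19S subunits lie around 0, and on the right no point is filled.

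Psmb8 encodes the immunoproteasome form of the chymotrypsin-like site and had the highest level per kilobase of the 47 members in each group, at 5820.4 normalized counts per kilobase of principal transcript in synovium, 9161 in arthritic node and 10024 in control node. Its normalized counts were 9338, 11342 and 7747 in synovial libraries 1 to 3, 15230.0, 15074 and 14441 in arthritic node, and 17524, 16320.0 and 15115 in control node. Every synovial library lay below every node library, with the widest spread among the synovial ones. The log2 difference between synovium and arthritic node was -0.67 ± 0.13 (SE, n = 3 and 3, limma, adjusted p = 0.00138), a 1.59-fold lower level. Without synovial library 3, the lowest, it was -0.53.

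Psmb9 encodes the immunoproteasome form of the caspase-like site. It was counted at 1864, 1728 and 1569 in synovium, 3234, 3059.6 and 2785 in arthritic node, and 3087, 3045 and 3073 in control node. The synovial range ended well below the range of the nodes, and the arthritic node libraries spread around the tightly grouped controls. The log2 difference was -0.82 ± 0.11 (SE, n = 3 and 3, limma, adjusted p = 0.000106), 1.76-fold lower.

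Psmb10, the immunoproteasome form of the trypsin-like site, had 1628, 1854 and 1401 normalized counts in synovium, 3754, 3433 and 3119 in arthritic node, and 3481, 3877 and 3490.4 in control node. The highest synovial library was still far below the lowest node library. Of the 5 immunoproteasome genes it fell the most, with a log2 difference of -1.08 ± 0.12 (SE, n = 3 and 3, limma, adjusted p = 3.63e-05).

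The PA28 genes fell less. Psme1 had 3892, 3906 and 3836 normalized counts in synovium, 5016, 4844 and 4391 in arthritic node, and 4758, 5155 and 5188 in control node. Psme2 had 4910.0, 5294 and 4389 in synovium, 6239.6, 6528 and 6352 in arthritic node, and 7023, 6792 and 6373 in control node. Neither gene's synovial libraries overlapped the nodes. Psme2 differed by -0.39 ± 0.10 (SE, n = 3 and 3, limma, adjusted p = 0.00769) and Psme1 by -0.29 ± 0.09 (adjusted p = 0.0304). The call of Psme1 was lost when only these 2 groups were fitted, without the mouse as a block (adjusted p = 0.0566) or with it (adjusted p = 0.0699), and on leaving out synovial library 1 or 3 or arthritic node library 1 or 2 (adjusted p 0.0505 to 0.113). It was also lost without the mean-variance trend in limma (adjusted p = 0.0987). Psme3, the nuclear relative that interferon does not induce, gave 0.13 ± 0.29 and did not pass the test (adjusted p = 0.764). The log2 ratio of Psme2 to Psme1 averaged 0.32 in synovium, 0.43 in arthritic node and 0.42 in control node, so the 2 PA28 partners kept overlapping ratios in the 3 groups.

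**Figure D2:**
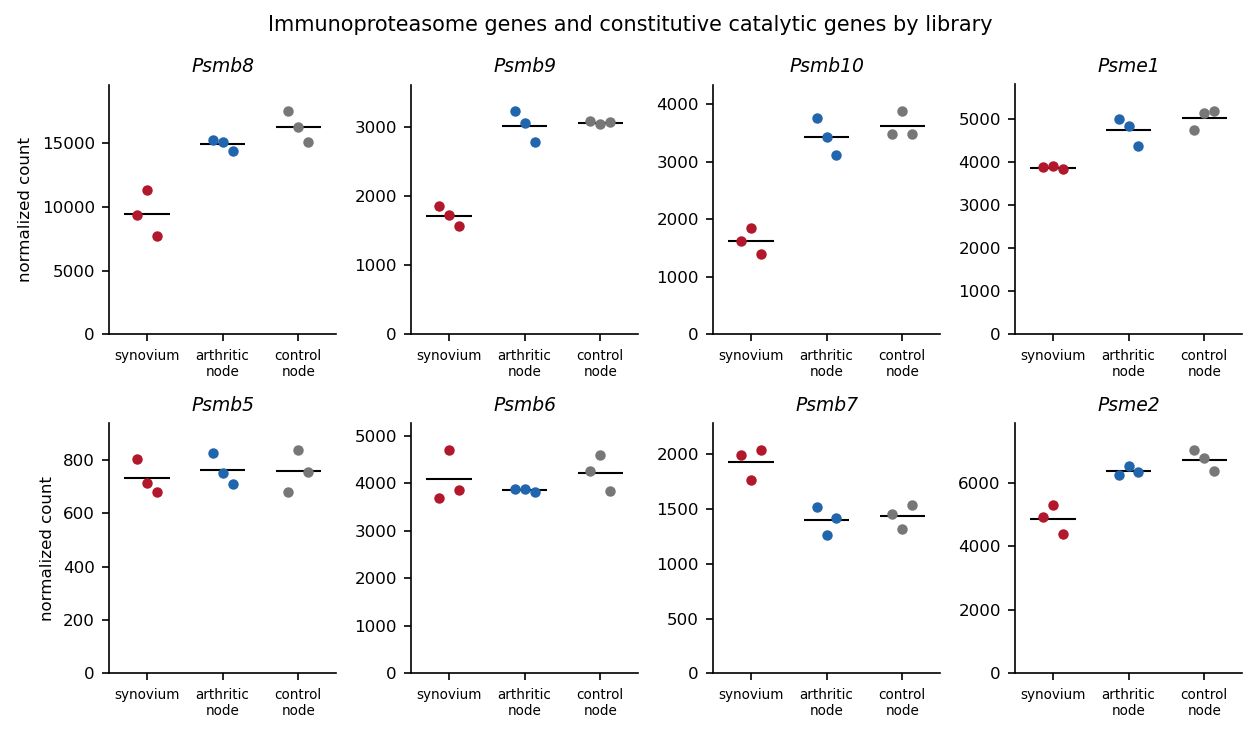
Normalized counts per library (points) and group means (lines) of the immunoproteasome genes Psmb8, Psmb9, Psmb10, Psme1 and Psme2 and of the constitutive catalytic genes Psmb5, Psmb6 and Psmb7, on linear axes from 0. The synovial libraries lie below the nodes in each immunoproteasome gene, among them in Psmb5 and Psmb6, and above them in Psmb7.

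None of the 3 constitutive counterparts was called lower. Psmb5, the chymotrypsin-like subunit, had 802, 712 and 679 normalized counts in synovium, 826, 750.5 and 709 in arthritic node, and 678, 836 and 756 in control node. Psmb6, the caspase-like subunit, had 3694, 4693 and 3860.0 in synovium, 3879, 3874 and 3820.0 in arthritic node, and 4258, 4585 and 3833 in control node. Both ranges overlapped in all groups, with log2 differences between synovium and arthritic node of -0.06 ± 0.15 for Psmb5 (adjusted p = 0.789) and 0.07 ± 0.11 for Psmb6 (adjusted p = 0.656). Psmb7, the trypsin-like subunit, had 1992, 1764 and 2036 in synovium, 1517, 1260.4 and 1419.5 in arthritic node, and 1458, 1314 and 1541 in control node. Each synovial library exceeded each node library, and the difference of 0.47 ± 0.12 (SE, n = 3 and 3, limma, adjusted p = 0.0118) was the only rise among the 47. It was not called without arthritic node library 2 (adjusted p = 0.0553) or after quantile normalization (0.24, adjusted p = 0.174). Exons of Psmb7 overlap those of Nek6, a mitotic kinase gene on the other strand, which stood at 165 ± 6.72 normalized counts in synovium and 81.3 ± 63.5 in arthritic node. Whether reads were counted by strand is not given in the sources used here.

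Dividing each immunoproteasome subunit by the subunit whose place it takes removes the scaling between libraries, because both counts come from 1 library. The log2 ratio of Psmb8 to Psmb5 was 3.54, 3.99 and 3.51 in synovium, 4.20, 4.33 and 4.35 in arthritic node, and 4.69, 4.29 and 4.32 in control node. That of Psmb9 to Psmb6 was -0.99, -1.44 and -1.30 in synovium, -0.26, -0.34 and -0.46 in arthritic node, and -0.46, -0.59 and -0.32 in control node. That of Psmb10 to Psmb7 was -0.29, 0.07 and -0.54 in synovium, 1.31, 1.45 and 1.14 in arthritic node, and 1.26, 1.56 and 1.18 in control node. In the 3 pairs every synovial ratio lay below every node ratio, and the 2 node groups overlapped. Mean ratios differed between synovium and arthritic node by -0.61, -0.89 and -1.55 in that order, with no test of the ratios. Per kilobase of principal transcript, Psmb10 made up 68.5% ± 2.32 (SD, n = 3) of Psmb10 plus Psmb7 in arthritic node, 69.0% ± 2.96 in control node and 42.7% ± 5.21 in synovium. Psmb9 made up 31.6% ± 1.46 of its pair in arthritic node and 20.1% ± 2.62 in synovium, and Psmb8 made up 91.5% ± 0.422 and 87.5% ± 1.95 of its own. Reads of other isoforms are counted too, so the shares are rough as levels and bear on differences between groups.

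**Figure D3:**
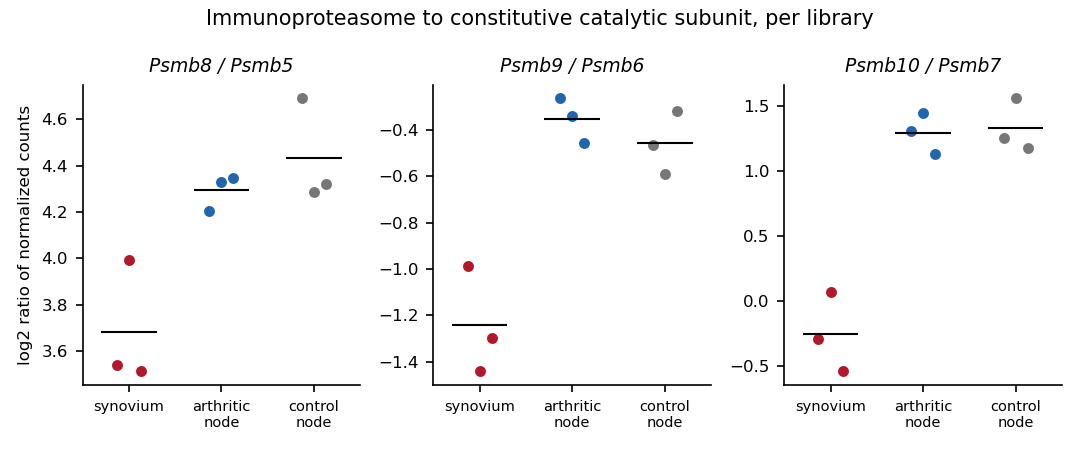
Log2 ratio of normalized counts, immunoproteasome over constitutive catalytic subunit, in each library (points) with group means (lines); each panel has its own axis, which does not start at 0. In each pair the 3 synovial libraries lie below the 6 node libraries, by the widest margin for Psmb10 over Psmb7.

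Of the 14 constitutive core genes, 7 alpha and 7 beta, Psmb7 was the only one called, and their median log2 difference between synovium and arthritic node was 0.01, within a range of -0.08 (Psma4) to 0.47 (Psmb7). The alpha ring genes ran from -0.08 to 0.15 (Psma5), with no adjusted p below 0.318. Psma7, which Psma8 replaces in testis, was the highest alpha gene per kilobase, at 5691 normalized counts per kilobase in synovium and 5623 in arthritic node. The non-catalytic beta genes Psmb1 to Psmb4 ran from -0.02 (Psmb2) to 0.18 (Psmb4). Standard errors of the 14 genes were 0.09 to 0.15. After quantile normalization Psma2 (-0.31), Psma7 (-0.37), Psmb1 (-0.40) and Psmb2 (-0.30) were called lower, against 0.01, 0.01, 0.00 and -0.02 before it.

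None of the 17 subunits of the 19S cap was called between synovium and arthritic node. Their median was 0.08, and they ranged from -0.16 (Psmc6, an ATPase) to 0.22 (Psmd1, the largest scaffold subunit of the base), with standard errors of 0.10 to 0.19 and no adjusted p below 0.221. After quantile normalization 5 of them were called lower: Psmc6 (-0.39), Psmc3 (-0.36), Psmd6 (-0.35), Psmd11 (-0.33) and Psmd12 (-0.30). The 6 ATPases had a median of 0.12, the 3 other base subunits (Psmd1, Psmd2 and Psmd4, the last a ubiquitin receptor) 0.10, and the 8 lid subunits 0.02. Psmd14, the deubiquitinase of the lid, gave 0.10 ± 0.12 (adjusted p = 0.54). Psmd8, another lid subunit, had 2684, 2765 and 2670.0 normalized counts in synovium, 2669, 2585 and 2328 in arthritic node, and 1938, 2150.4 and 2118 in control node. Its synovial and arthritic node libraries both lay above the controls, close to each other.

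The same 31 core and cap subunits held 0.656% to 0.677% of all normalized counts of a synovial library, against 0.771% to 0.815% of an arthritic node and 0.815% to 0.843% of a control node library. The 5 immunoproteasome genes held 0.137% to 0.169%, 0.281% to 0.299% and 0.307% to 0.316% in the same order. As a share of the library both sets were lower in synovium. Relative to the size factors, which follow the typical gene, the 31 subunits were near 0 with a median of 0.06.

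Of the 7 assembly chaperones, 5 were lower in synovium than in arthritic node, against 15.9% of all genes tested, and their median log2 difference was -0.70. Psmg1 and Psmg2 pair to guide the alpha ring. Psmg1 had 296, 316 and 271 normalized counts in synovium, 754, 554 and 605 in arthritic node, and 959, 867 and 750.5 in control node. Psmg2 had 317, 284 and 257 in synovium, 659, 619.6 and 501 in arthritic node, and 454, 536 and 552 in control node. No synovial library of either gene reached a node library, and the log2 differences from arthritic node were -1.10 ± 0.18 (SE, n = 3 and 3, limma, adjusted p = 0.000489) and -1.04 ± 0.19 (adjusted p = 0.00106).

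Psmg3 and Psmg4 form the second pair of core chaperones. Psmg4 had 205, 174 and 137 normalized counts in synovium, 321, 382 and 361 in arthritic node, and 350.3, 384 and 367 in control node. The synovial libraries lay below those of both nodes, which overlapped, and the difference from arthritic node was -1.06 ± 0.22 (SE, n = 3 and 3, limma, adjusted p = 0.00315). Psmg3 stood at 199 ± 40.9, 296 ± 39.9 and 340.4 ± 29.3 (SD, n = 3) in synovium, arthritic node and control node, and its log2 difference of -0.58 ± 0.23 did not pass the test (adjusted p = 0.0766), though it did without synovial library 2 (-0.74, adjusted p = 0.0397). Pomp, the maturation protein of the core, was not called, at 3489 ± 129 in synovium and 3405 ± 75.8 in arthritic node (0.03 ± 0.10, adjusted p = 0.817).

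Among the chaperones of the 19S base, Psmd5 had 1622, 2029 and 1286 normalized counts in synovium, 2738, 2560.2 and 2608 in arthritic node, and 2859.5, 2759 and 2346 in control node. The synovial libraries were the lowest and the most spread, and the log2 difference was -0.70 ± 0.15 (SE, n = 3 and 3, limma, adjusted p = 0.00378). Psmd10, or gankyrin, an ankyrin-repeat chaperone that also binds the retinoblastoma protein, stood at 981 ± 102, 1361 ± 131 and 1304 ± 167 (SD, n = 3) in synovium, arthritic node and control node, a difference of -0.47 ± 0.14 (adjusted p = 0.0237). That call was lost without synovial library 3 or arthritic node library 1 or 2 (adjusted p 0.0650 to 0.0949). It was also lost without the mean-variance trend in limma (adjusted p = 0.0568). Psmd9 went the other way in value, at 0.44 ± 0.21, and did not pass the test (adjusted p = 0.132).

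**Figure D4:**
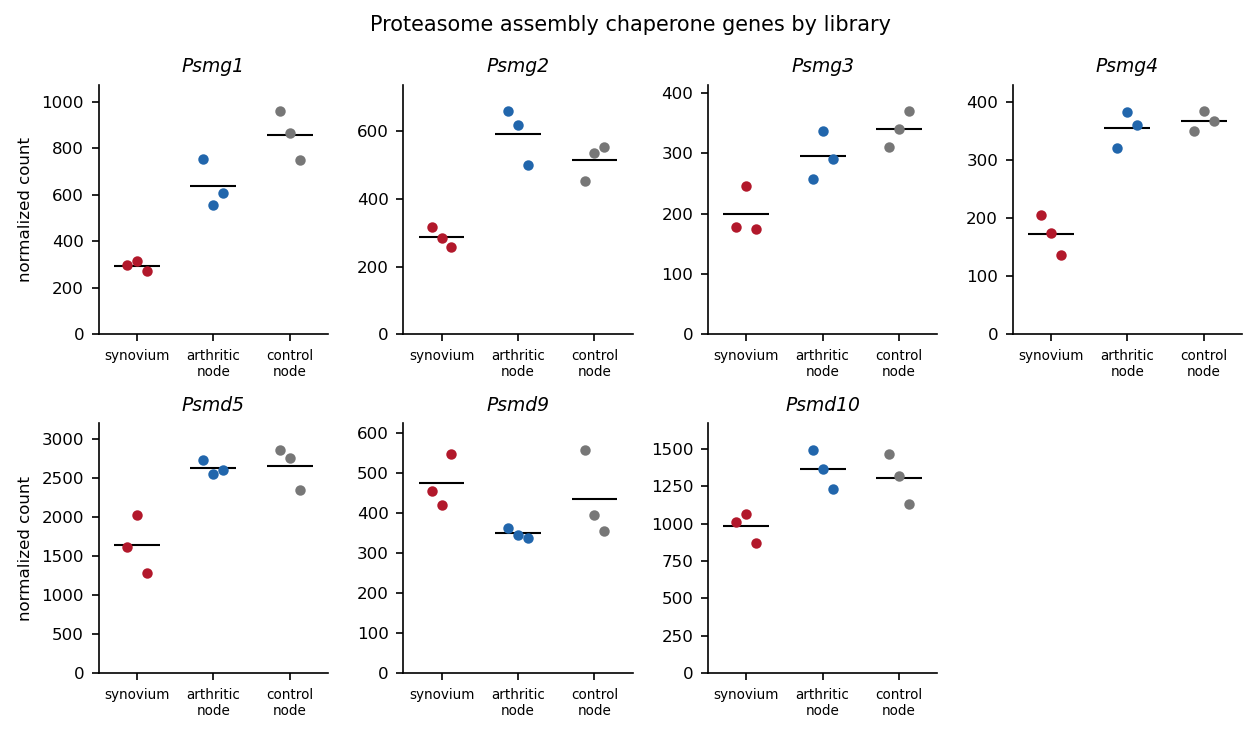
Normalized counts per library (points) and group means (lines) of the 7 assembly chaperone genes, on linear axes from 0. Psmg1, Psmg2, Psmg4, Psmd5 and Psmd10 are lower in the 3 synovial libraries than in the arthritic node libraries, Psmg3 shows the same order without passing the test, and Psmd9 lies higher in synovium than in arthritic node without passing it.

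The remaining regulators did not pass the test. Psme4, the PA200 activator known from chromatin and sperm development, had 631, 540.1 and 471 normalized counts in synovium and 486, 415 and 161 in arthritic node, which overlap, at 0.77 ± 0.36 (adjusted p = 0.12). Psmf1, an inhibitor of the core, gave 0.10 ± 0.15 (adjusted p = 0.642). Psmc3ip, outside the proteasome, had 59.5, 35.2 and 75.3 in synovium, 164, 77.0 and 107 in arthritic node, and 100.4, 147 and 142 in control node. Its synovial libraries were the lowest and its difference from arthritic node was -1.02 ± 0.43 (adjusted p = 0.0884). Its exons overlap those of Mlx on the other strand, a transcription factor gene that stood at 661 ± 121, 1179 ± 283 and 1062 ± 268 normalized counts in the 3 groups (SD, n = 3) and was itself lower in synovium than in arthritic node (-0.82 ± 0.23, adjusted p = 0.0156) and control node (-0.67, adjusted p = 0.0359).

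In the authors' deposited table of the same comparison, the same 11 members had an adjusted p under 0.05 with the same signs. Psmb10 stood at -1.10 there, Psmg1 at -1.14, Psmb8 at -0.68 and Psmb7 at 0.44 on the log2 scale.

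The comparison of the 2 nodes asks what arthritis changes in Tregs outside the joint. Of the 47 members, 0 were called by limma in either direction, against 0.343% of all genes tested. An unadjusted p under 0.05 was found for 4 of the 47, against 1031 of all 11357 genes. The median log2 difference, arthritic node minus control node, was -0.08 over the immunoproteasome genes and -0.07 over all members, beside 0.01 over all genes. The immunoproteasome genes ran from -0.13 (Psmb8) to -0.02 (Psmb9) with standard errors of 0.09 to 0.13, and each gene's node groups overlapped. The lowest adjusted p was that of Psmd8, at 0.29 ± 0.10 (adjusted p = 0.406). Psme3 had 298, 190.5 and 323 normalized counts in arthritic node and 471, 385 and 507 in control node, which do not overlap, with a difference of -0.77 ± 0.29 (adjusted p = 0.444). Psmg1 gave -0.43 ± 0.18 (adjusted p = 0.505) and Psma6 -0.26 ± 0.11 (adjusted p = 0.499).

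Synovium was also set against control node, a comparison that shares the synovial libraries with the first and differs in both tissue and disease. Here 2 of 47 members were higher and 12 lower, against 21.6% of all genes higher and 18.5% lower. After quantile normalization 0 members were higher and 28 lower, against 1999 higher and 2747 lower of all 11357 genes. The median log2 difference was -0.80 over the immunoproteasome genes and -0.05 over the 42 others, beside 0.02 over all genes. The immunoproteasome genes ran from -0.38 (Psme1) to -1.16 (Psmb10), and the limma adjusted p of Psmb10 was 1.57e-05. Psmg1 differed the most of all members, at -1.54 ± 0.18 (adjusted p = 2.98e-05), a 2.90-fold lower level. Psmg4 (-1.11), Psmg2 (-0.84), Psmg3 (-0.78), Psmd5 (-0.71) and Psmd10 (-0.41) were called lower as well, so 6 of 7 assembly chaperones fell. Psmb7 (0.43 ± 0.12, adjusted p = 0.0164) and Psmd8 (0.39 ± 0.10, adjusted p = 0.01) were higher. Psmc3ip was lower (-1.23 ± 0.43, adjusted p = 0.0387). The calls of Psmb7, Psmd10, Psmg3 and Psmc3ip did not hold on leaving out certain single libraries: synovial library 1 for all 4; synovial library 3 for Psmd10 and Psmg3; synovial library 2 for Psmc3ip; control library 1 for Psmd10; control library 2 for Psmb7, Psmd10 and Psmc3ip; and control library 3 for Psmg3 and Psmc3ip. With only these 2 groups fitted, Psmd10 (adjusted p = 0.0694) and Psmc3ip (adjusted p = 0.0538) were not called, nor were they with the replicate number as a block in that fit (adjusted p = 0.0517 and 0.0730). Psmd10 was also not called without the mean-variance trend in limma (adjusted p = 0.0782), nor Psmc3ip without the filter on low values (adjusted p = 0.0583).

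Genes that work beside the proteasome were read by list. Of the genes that encode ubiquitin, the stress-responsive Ubb was higher in synovium than in arthritic node, at 2573 ± 528 against 951 ± 104 normalized counts (SD, n = 3), a log2 difference of 1.42 ± 0.16 (adjusted p = 3.32e-05). Rps27a, which encodes ubiquitin fused to a ribosomal protein, was lower (-0.87 ± 0.12, adjusted p = 0.000168). In the same comparison 15 of the 20 genes of the dissociation and heat-shock list were higher, and their part in these values was not tested.

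Of 19 tested genes for ubiquitin receptors, shuttles and proteasome-associated proteins, 4 were higher and 2 lower in synovium than in arthritic node, against 17.9% and 15.9% of all genes tested. The higher ones were Ddi2 (2.13 ± 0.49, adjusted p = 0.0052), the protease that activates Nrf1, Zfand5 (1.66 ± 0.27, adjusted p = 0.000518), an activator of the proteasome, the shuttle Rad23b (1.26 ± 0.26, adjusted p = 0.00273) and the redox protein Txnl1 (0.79 ± 0.15, adjusted p = 0.00129). AI314180, the mouse gene for the scaffold protein Ecm29, was among the lower (-0.83 ± 0.22, adjusted p = 0.0113). Of 11 tested genes of the p97 unfoldase complex, Ubxn4 (1.01 ± 0.11, adjusted p = 2.88e-05), Ufd1l (0.51 ± 0.13, adjusted p = 0.0107) and Ubxn1 (0.35 ± 0.12, adjusted p = 0.0433) were higher and none was lower, against 17.9% and 15.9% of all genes. The call of Ubxn1 held in 6 of 18 alternatives and was lost with only these 2 groups fitted, without the mouse as a block (adjusted p = 0.0654) or with it (adjusted p = 0.0868), with edgeR and DESeq2, and on leaving out arthritic node library 1, 2 or 3 or synovial library 1 or 2. That of Ufd1l was lost without arthritic node library 3 (adjusted p = 0.0524). Vcp, p97 itself, gave -0.02 ± 0.11 and did not pass the test.

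Of 9 tested genes for transcriptional control of proteasome genes, 1 was higher and 3 were lower, against 17.9% and 15.9% of all genes. Nlrc5, the activator of MHC class I genes and of Psmb9, was lower (-0.50 ± 0.16, adjusted p = 0.0333), as were Hsf1, the heat-shock factor (-0.67 ± 0.13, adjusted p = 0.0017), and Ngly1, the deglycosylase that Nrf1 needs (-0.61 ± 0.13, adjusted p = 0.0042). The call of Nlrc5 was lost without synovial library 2 or arthritic node library 2 or 3 (adjusted p 0.0838 to 0.126). It was also lost without the mean-variance trend in limma (adjusted p = 0.0901). Stat3 was higher, at 2.43 ± 0.16 (adjusted p = 2.75e-07). The interferon regulatory factor Irf1 (0.05 ± 0.18, adjusted p = 0.874) was not called, nor were Nfe2l1, which encodes Nrf1 (0.36 ± 0.47, adjusted p = 0.589), and Nfe2l2, which encodes Nrf2 (-0.59 ± 0.25, adjusted p = 0.0911). With only these 2 groups fitted, Nfe2l2 had an adjusted p of 0.0796, and with the mouse as a block it was called lower (adjusted p = 0.0251), as it was after quantile normalization (-0.71).

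Of 11 tested genes of the class I pathway downstream of the immunoproteasome, 3 were higher and 2 lower in synovium than in arthritic node, against 17.9% and 15.9% of all genes. The class I heavy chain genes H2-K1 (0.68 ± 0.09, adjusted p = 0.000122) and H2-D1 (0.57 ± 0.09, adjusted p = 0.000323), close relatives between which reads can be split uncertainly, and B2m, the light chain (0.30 ± 0.11, adjusted p = 0.048), were higher. Tap2, a chain of the peptide transporter, was lower (-0.44 ± 0.11, adjusted p = 0.00663), as was Tapbp, or tapasin (-0.33 ± 0.10, adjusted p = 0.0234). Tap1, the other transporter chain, gave -0.32 ± 0.14 and did not pass the test (adjusted p = 0.0906). With only these 2 groups fitted, adding the mouse as a block moved Tap1 from an adjusted p of 0.0654 to 0.0471 and Tapbp from 0.0473 to 0.0512, and B2m was not called without the block (adjusted p = 0.0959) or with it (adjusted p = 0.0824). The call of B2m held in 4 of 18 alternatives and was lost without arthritic node library 1, 2 or 3 or synovial library 1 or 3, that of Tapbp without arthritic node library 2 or 3 or synovial library 1 or 2. Tapbp was also not called without the mean-variance trend in limma (adjusted p = 0.0967). After quantile normalization H2-D1 and B2m stood at 0.00. That method gives genes of equal rank the same value in every library, so it cannot show a change in a gene that keeps its rank. Tap1 lies between Psmb9 and Psmb8 in the MHC: in GRCm38, Psmb9 spans chr17:34181987-34187764, Tap1 chr17:34187553-34197225 and Psmb8 chr17:34197721-34201454. Exons of Psmb9 and Tap1 overlap on opposite strands.

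Members were also checked for reads they could share. In the GENCODE vM21 annotation, 14 of 47 members have exons that overlap another gene, 3 of them on the same strand (Psmb5, Psmd1 and Psmg3) and 12 on the other. Psmb8 overlaps Gm20496, and Psme1 overlaps Emc9, which was itself lower in synovium (-0.69 ± 0.24, adjusted p = 0.0392), though not with only these 2 groups fitted, without the mouse as a block (adjusted p = 0.0602) or with it (adjusted p = 0.0840), or without any 1 of arthritic node libraries 1 to 3 or synovial libraries 1 and 2. The annotation also holds the pseudogenes Psmb5-ps, Psmb6-ps, Psmb6-ps2 and Psmb7-ps2. Of the called members outside these overlaps, Psmb10, Psme2, Psmg1, Psmg2, Psmg4, Psmd5 and Psmd10 share no annotated exon with another gene.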

How the data were processed

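RNA was measured in 9 libraries of 3 groups, assigned by the titles. The submitters' processing notes name HISAT2, HTSeq, DESeq2 and mm10, with no versions. The authors deposited a table of normalized signal (reads per gene over each library's size factor) and a table with a mean signal, log2 fold changes, a test score and p-values, per the file headers. In 6 libraries of arthritic mice 100% of nonzero values were whole multiples, within 0.01, of a constant, so reads were recovered there. In control library 1 a read is worth close to 1 normalized count, which the check of whole reads used here does not accept, so count tests were limited to those 6 libraries. Genes with a mean of 10 or more were tested with limma 3.58.1 in R 4.3.3 (lmFit, eBayes with trend) on log2(value + 1), all 9 libraries sharing 1 estimate of spread, two-sided, with BH adjustment over 11357 genes. Fold changes are on this scale, which understates those of low genes. edgeR 4.0.16 and DESeq2 1.42.0 were alternatives on the recovered reads.

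Members and lists were chosen with earlier results of these data known. Any member could be named. Values per library were given for the immunoproteasome genes, Psmb5 to Psmb7 and, in each comparison, up to 6 called members per direction, and values of Psmd8, Psme3 and Psme4 were added after seeing them. From each other list up to 5 called genes were named, besides Pomp, Nfe2l1, Nfe2l2, Irf1, Tap1 and Nlrc5. Vcp was named after its values were seen. Some genes of these lists are not reported here. Levels per kilobase used the principal transcripts of GENCODE vM21 and promoters came from RefSeq; 40 of 47 members had a window. Synovial and arthritic node libraries of a number come from 1 mouse by the titles; deviations of same-numbered libraries from their group means correlated at 0.0239, 0.0540 and 0.0891, each library best with its own number. The arthritic node and control mice are separate animals that share only a number. Their same-numbered libraries correlated at 0.00462, 0.0665 and 0.0703, with arthritic node libraries 2 and 3 best with their own number. Such correlations therefore cannot decide whether 2 libraries come from 1 mouse.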

Additional observations from a re-analysis of the deposited data

How the results depend on the processing

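Psmb8, Psmb9, Psmb10, Psme2, Psmg1, Psmg2, Psmg4 and Psmd5 kept their lower call between synovium and arthritic node in 18 of 18 alternatives. Other pseudocounts, filters, variance models, library weights, TMM scaling (chosen after seeing the data) and the count tests left the counts of called members within 1.5 times; edgeR and DESeq2 each called 1 higher and 10 lower. Quantile normalization changed most: between synovium and arthritic node 0 members were higher and 19 lower, against 1711 and 2344 of all 11357 genes. The medians were -0.22 over the 42 other members and -1.05 over the immunoproteasome genes. Psma2 (-0.31), Psma7 (-0.37) and Psmb1 (-0.40) turned from values near 0 to lower. Between synovium and control node quantile normalization gave 0 members higher and 28 lower, against 1999 and 2747 of all genes. The medians there were -0.34 and -1.07, with Psmb1 at -0.26. TMM put the median of the 42 others at -0.02 instead of 0.02. Leaving out 1 library gave 0 to 1 higher, 8 to 11 lower and an immunoproteasome median of -0.81 to -0.53 between synovium and arthritic node (0 higher without arthritic node library 2; -0.81 without synovial library 2 and -0.53 without synovial library 3). Between synovium and control node it gave 1 to 3 higher, 9 to 12 lower and an immunoproteasome median of -0.84 to -0.66. The cause of these shifts was not tested. With the replicate block, 1 member was higher and 9 lower between synovium and arthritic node, and 2 higher and 10 lower between synovium and control node. Between the nodes the fit with the block called 0 members, and also 0 of all 11357 genes. Control mice share only a number with arthritic mice, so there the block pairs separate animals. Against the fit of the same 2 groups without the block, the block changed no call of a member, and outside the members it changed those of Tap1, Tapbp and Nfe2l2. Fitting only the 2 groups lost the call of Psme1 between synovium and arthritic node and those of Psmd10 and Psmc3ip between synovium and control node. Count tests were not run for comparisons with control node. With 3 libraries a group, a difference no larger than a member's own standard error (0.09 to 0.43 over the members) was not detectable. Some larger ones were not called either, such as Psmc3ip at -1.02 ± 0.43 between synovium and arthritic node.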
